A study of Mus musculus with 6 samples.

Results

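Trp53, which encodes the tumour suppressor p53, was examined with 9 genes tied to it, its inhibitors Mdm2 and Mdm4 and the targets Ccng1, Bax, Bbc3, Pmaip1, Zmat3, Aen and Sesn1. The 10 genes were found by symbol among the 14327 genes of the table, and all 10 passed the filter on low values, a mean of at least 1 FPKM over the 6 libraries. FPKM is the number of fragments scaled to transcript length and to the fragments of the library. RNA had been sequenced from 3 wild-type (WT) libraries and from 3 whose labels give a conditional knockout (cKO) of Slc22a17, the gene of a lipocalin 2 receptor. All were neurospheres, floating cultures of neural stem cells grown with B27, N2, EGF and bFGF from hippocampus taken at postnatal day 0. The sources used here do not give the strain, the Cre driver or the deleted part of the gene. Nothing in the labels ties a library to its own animal or culture, so p-values measure only how far these libraries spread, and that spread may be technical.

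p53 is a transcription factor that is made and destroyed continuously. MDM2 marks it for degradation and MDM4 blocks its activity, and Mdm2 is itself a p53 target, so that the pair forms a negative feedback. Under DNA damage or other stress p53 escapes this control and switches on genes of cell cycle arrest, apoptosis and repair. Much of that regulation acts on the protein, which RNA does not measure. In neural progenitors p53 is known to restrain self-renewal and to trigger death after damage.

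p53 binds pairs of a 10-base half-site, in which 3 purines stand before a core of a C, 2 bases that are each A or T, and a G, with 3 pyrimidines behind it. Exact half-sites were searched in RefSeq promoter windows (GRCm38.p6), 250 bases before to 50 after a transcript start. The consensus reads the same on both strands. The RefSeq table held windows of 8 of the 10 genes, 13 windows in all, and 6 of these 8 genes (75%) held a half-site, against 9.55% of the 27025 genes with a window. Counted by window the shares were 53.8% of the 13 and 8.36% of all 32851. Most of these genes were listed because they are p53 targets, so the higher share is not independent evidence. A pair of half-sites at most 13 bases apart, with up to 1 mismatch in each outside the core, was in none of the 8 and in 1.61% of all genes. The half-sites are shown because they are the p53-like letters in the promoter windows of the genes described here, each with 10 bases on either side, 5′ to 3′ on the strand of the gene and with the half-site in capitals. A match is a description of letters, not a site shown to be bound.
Trp53, chr11:69580274-69580303, plus strand: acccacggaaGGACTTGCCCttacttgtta
Mdm2, chr10:117710925-117710954, minus strand: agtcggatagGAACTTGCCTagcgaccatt
Ccng1, chr11:40755452-40755481, minus strand: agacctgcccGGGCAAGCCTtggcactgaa
Bax, chr7:45467080-45467109, minus strand: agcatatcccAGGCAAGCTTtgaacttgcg
Aen, chr7:78895927-78895956, plus strand: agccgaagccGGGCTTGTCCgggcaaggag
Sesn1, chr10:41887256-41887285, plus strand: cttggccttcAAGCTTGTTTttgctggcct

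Counted from the transcript start at position 0, the half-site lay at -185 to -176 in Ccng1, -201 to -192 in Bax, -186 to -177 in Mdm2 and -75 to -66 in Trp53. In Sesn1 it lay at -173 to -164 of 1 of 2 listed starts. The Aen half-site lay at -121 to -112 of 1 start and at 10 to 19 of the other. The windows of Bbc3 and Mdm4 held no exact match.

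Y-linked transcripts set some libraries apart. The sum of Ddx3y and Eif2s3y was 0.07 to 0.10 FPKM for WT replicates 1 and 2, reached 25.9 FPKM for the third WT library and 43.8 to 51.2 FPKM in the cKO-labelled libraries. Slc22a17 itself was at 169 to 204 FPKM in WT and 164 to 187 FPKM in the cKO-labelled libraries (log2 fold change -0.097, adjusted p = 0.707 in limma), so directions are given between WT and cKO-labelled libraries. Of 11596 genes tested, 3 passed an adjusted p of 0.05, which is 0.0259%. All 8 neural stem cell markers were expressed, with Sox2 at 123 to 148 FPKM and Fabp7 at 1768 to 2142 FPKM. Of these 8, 7 had fold changes below 0, as did 55.5% of all tested genes. At an unadjusted p under 0.05 in limma 1 of 8 was lower, beside 7.82% of all tested genes. This was Hes1, with means of 11.9 FPKM in WT and 9.73 FPKM in the cKO-labelled libraries and no overlap. The 5 astrocyte markers summed to 2181 to 3284 FPKM in WT and 2860 to 3034 FPKM in the cKO-labelled libraries, mostly Gfap. At an unadjusted p under 0.05, 2 of 5 were higher, beside 4.44% of all tested genes. These were Gjb6 (means of 13.6 and 22.5 FPKM, no overlap) and S100b (6.13 and 8.36 FPKM). Fold changes were above 0 for 3 of 5 and below 0 for 2, Aqp4 (176 and 161 FPKM) and Aldh1l1 (323 and 316 FPKM). The 6 oligodendrocyte lineage markers summed to 1237 to 1704 and 1192 to 1453 FPKM. At that p 1 of 6 was lower, Mbp (60.7 and 38.8 FPKM), beside 7.82% of all tested genes. Fold changes were below 0 for 5 of 6 and above 0 for 1, Pdgfra (7.70 and 9.28 FPKM). Of 5 neuron markers, Dcx and Rbfox3 stayed at or under 0.47 FPKM and Neurod1 was not among the genes given with FPKM values. Map2 was at 70.8 to 84.8 FPKM, and Tubb3 averaged 4.02 and 5.15 FPKM, with no overlap. At an unadjusted p under 0.05 in limma 1 of the 2 tested neuron markers, Tubb3, was higher, beside 4.44% of all tested genes. Limma called none of these markers, the markers named with values were chosen after these were seen, and their part in the results was not tested. The 6 microglial markers summed to 7.89 to 10.02 FPKM in WT and to 4.71 to 11.0 FPKM in the cKO-labelled libraries. In bulk RNA, fewer cells of a type and less RNA per cell cannot be told apart.

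None of the 10 p53 genes passed the test. Limma called 0 of 10 at an adjusted p of 0.05, beside 0.00862% of all tested genes higher and 0.0172% lower, and 0 of 10 at an unadjusted p under 0.05, where 12.3% of all tested genes lay under the latter. The values of WT and of the cKO-labelled libraries did not overlap for 1 of the 10 genes, Trp53, against 17.2% of all tested genes. Log2 fold changes, cKO-labelled libraries minus WT on the log2(FPKM + 1) scale, ran from -0.20 for Pmaip1 to 0.056 for Sesn1, and 8 of 10 were below 0, as were 55.5% of all tested genes. Their median was -0.039, beside -0.015 for all tested genes. The median was -0.014 with median scaling and -0.019 with quantile normalization, and it was -0.085 without cKO replicate 1 and 0.0018 without cKO replicate 3. An exact two-sided permutation test of 3 against 3 libraries cannot go below 0.1, and Trp53 was the only one of the 10 to reach that value.

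**Figure D1:**
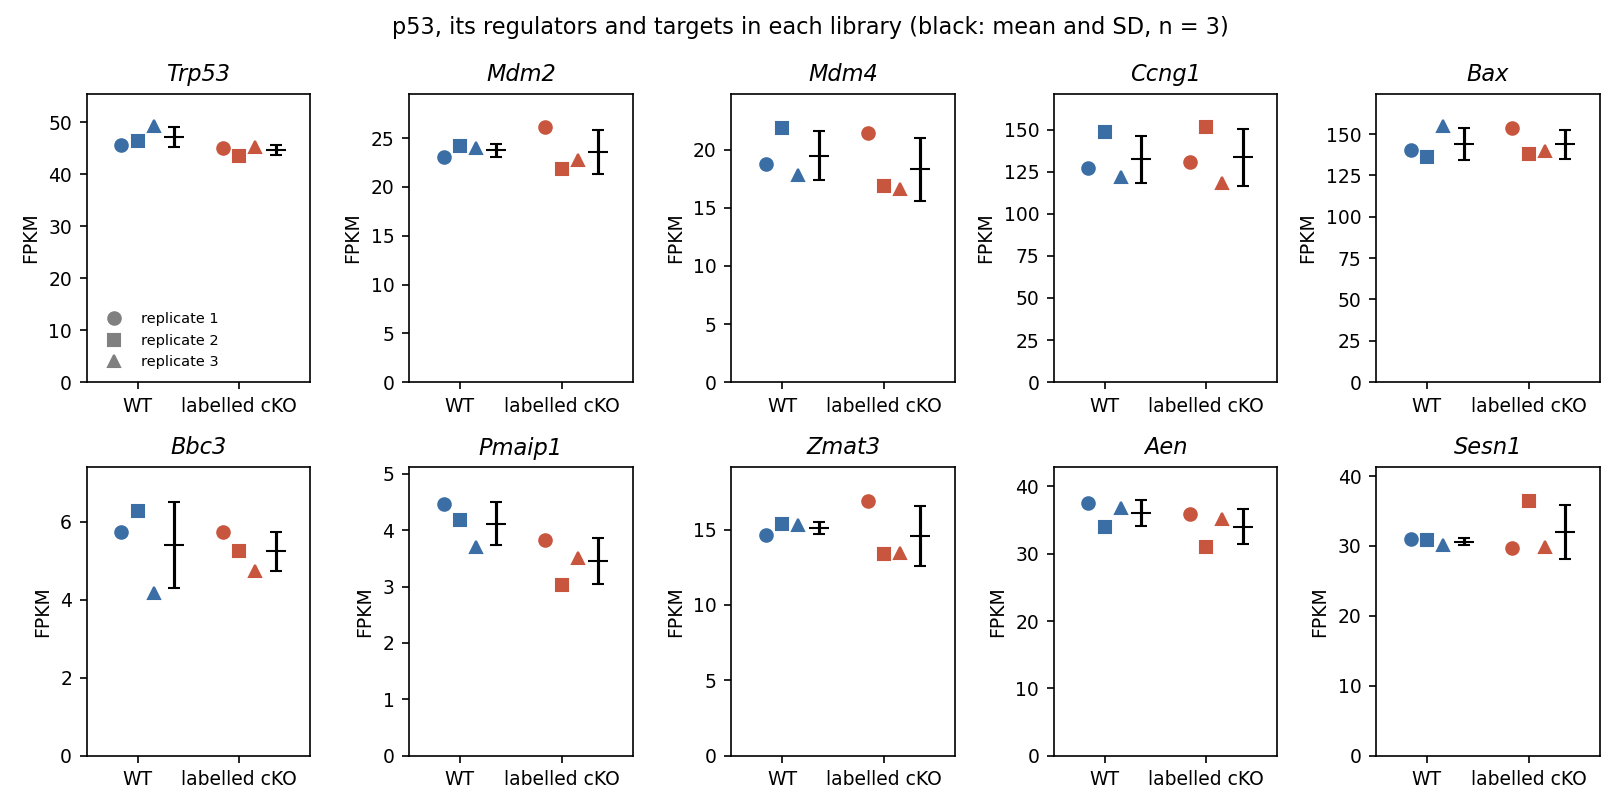
FPKM (vertical axes, from 0) of the 10 genes in 3 WT libraries (blue) and 3 cKO-labelled libraries (red), with symbols for the replicate number and black marks for the mean and SD. Trp53 is the one gene whose groups do not overlap, at 45.6 to 49.3 in WT and 43.5 to 45.3 in the cKO-labelled libraries.

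Trp53 (gene identifier 22059, chromosome 11, 69580348 to 69591873 in GRCm38) was at 45.6, 46.4 and 49.3 FPKM across WT replicates 1 to 3, against 45.1, 43.5 and 45.3 FPKM across cKO replicates 1 to 3. Each library labelled cKO lay below each WT library, but the gap between the groups was smaller than the range within either one. The means were 47.1 ± 1.94 and 44.6 ± 0.97 FPKM (SD, n = 3 each). The log2 fold change was -0.075 (SE 0.055, adjusted p = 0.628 in limma), and -0.043 without WT replicate 3, the highest library. Its 95% interval spanned 87.0% to 104% of WT, and this and every interval given here as a percentage of WT refers to FPKM + 1. Trp53 transcript was abundant, above 87.7% of the genes in the table by its mean over the 6 libraries.

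For both inhibitors the groups overlapped. Mdm2 (identifier 17246, chromosome 10, 117688875 to 117710758), the ubiquitin ligase that targets p53, was at 23.0, 24.2 and 24.0 FPKM across the WT libraries, against 26.2, 21.8 and 22.8 FPKM across those labelled cKO. The highest and the lowest of the 6 values were both in cKO-labelled libraries. The log2 fold change was -0.014 (SE 0.074, adjusted p = 0.962 in limma), with an interval of 88.0% to 111% of WT. Its sign turned with median scaling (0.010) and with quantile normalization (0.0042), and without cKO replicate 2 (0.038) or cKO replicate 3 (0.0081). Mdm4 (identifier 17248, chromosome 1, 132986105 to 133030587), the partner of MDM2 that lacks strong ligase activity of its own, was at 18.8, 21.9 and 17.9 FPKM across the WT libraries, against 21.4, 16.9 and 16.6 FPKM across those labelled cKO. One library of each group was high, WT replicate 2 and cKO replicate 1, and the groups overlapped. The means were 19.5 ± 2.11 and 18.3 ± 2.69 FPKM (SD, n = 3 each), with a fitted log2 change of -0.090 (SE 0.11, adjusted p = 0.800 in limma) and an interval of 79.0% to 112% of WT. Leaving out single libraries put this change between -0.20, without cKO replicate 1, and -0.0080, without WT replicate 2. Its sign turned against WT replicate 3 alone (0.026). It also turned with Y-linked transcripts as a covariate (0.11), which nearly follows the group.

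Because Mdm2 is both a target and an inhibitor of p53, its level relative to Trp53 was also compared within each library, a ratio of FPKM values chosen with the data known. Mdm2 stood at 0.505, 0.522 and 0.487 of Trp53 across the WT libraries, against 0.580, 0.501 and 0.502 across those labelled cKO. Only cKO replicate 1 lay outside the WT range (exact permutation p = 0.7, two-sided). The ratio of Mdm4 to Mdm2 was 0.820 ± 0.080 in WT and 0.774 ± 0.044 in the cKO-labelled libraries (SD, n = 3 each, exact permutation p = 0.5).

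Ccng1 (identifier 12450, chromosome 11, 40748552 to 40755309) encodes cyclin G1, a p53 target that feeds back on MDM2, and its half-site above is the one with GGGCAAGCCT in capitals. It was at 127, 148 and 122 FPKM across the WT libraries, against 131, 151 and 118 FPKM across those labelled cKO. Replicate 2 was the highest library of each group and replicate 3 the lowest, so that the groups spanned almost the same range. The log2 fold change was 0.0095 (SE 0.11, adjusted p = 0.982 in limma), with an interval of 85.2% to 119% of WT. The sign turned without WT replicate 1, WT replicate 3 or cKO replicate 2, to -0.017, -0.048 and -0.084.

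Of the apoptosis targets, Bax was abundant and Bbc3 and Pmaip1 were low. Bax (identifier 12028, chromosome 7, 45461695 to 45466903) encodes the protein that permeabilises the outer mitochondrial membrane. It was at 141, 136 and 155 FPKM across the WT libraries, against 154, 138 and 140 FPKM across those labelled cKO. WT replicate 3 and cKO replicate 1 were the highest of their groups, and the groups overlapped. The means were 143.8 ± 9.76 and 143.7 ± 8.54 FPKM (SD, n = 3 each). The fitted log2 fold change was -0.00036 (limma, SE 0.072, adjusted p = 1.00) with an interval of 89.2% to 112% of WT. The deposited value may include fragments of Gm45808, which shares 192 of the 1576 annotated exon bases of Bax on the same strand (12.2%, GENCODE M21).

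Bbc3 (identifier 170770, chromosome 7, 16308398 to 16318334) encodes PUMA, a BH3-only protein that releases BAX from its inhibitors. It was at 5.73, 6.28 and 4.16 FPKM across the WT libraries, against 5.74, 5.24 and 4.74 FPKM across those labelled cKO. WT replicates held both the highest and the lowest value, and the log2 fold change was -0.022 (SE 0.13, adjusted p = 0.967 in limma), with an interval of 79.9% to 121% of WT. Its sign turned under 7 of 16 alternative settings, among them median scaling (0.0021), quantile normalization (0.016) and leaving out WT replicate 2 (0.079). The value was 0.27 against WT replicate 3 alone and -0.17 without WT replicate 3. With Y-linked transcripts as a covariate, which nearly follows the group, it was 0.62.

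Pmaip1 (identifier 58801, chromosome 18, 66458604 to 66465558) encodes NOXA, a BH3-only protein that binds MCL1, and had the lowest mean of the 10 genes. It was at 4.46, 4.19 and 3.71 FPKM across the WT libraries, against 3.83, 3.02 and 3.51 FPKM across those labelled cKO. WT replicates 1 and 2 lay above all cKO-labelled libraries, while WT replicate 3 lay below cKO replicate 1. The cKO-labelled libraries averaged 3.45 ± 0.41 FPKM against 4.12 ± 0.38 FPKM in WT (SD, n = 3 each). This was the fold change farthest from 0 among the 10 genes, -0.20 (SE 0.10, adjusted p = 0.462, unadjusted p = 0.0759 in limma). Its interval was 74.1% to 102% of WT on FPKM + 1. On that scale the fitted level was 86.9% of WT, while the mean of FPKM itself was 83.8% of the WT mean. The fold change was -0.13 without cKO replicate 2, the lowest library, and -0.085 against WT replicate 3 alone.

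Aen (identifier 68048, chromosome 7, 78895927 to 78911209), an apoptosis-enhancing nuclease, was at 37.5, 33.9 and 36.7 FPKM across the WT libraries, against 35.9, 31.0 and 35.1 FPKM across those labelled cKO. Replicate 2 was the lowest library of each group, and the groups overlapped. Its log2 fold change was -0.084 (SE 0.072, adjusted p = 0.698 in limma), and -0.021 without cKO replicate 2.

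The remaining targets act on RNA and on stress metabolism. Zmat3 (identifier 22401, chromosome 3, 32334792 to 32365665) encodes a zinc finger RNA-binding protein. It was at 14.6, 15.4 and 15.3 FPKM across the WT libraries, against 16.9, 13.4 and 13.5 FPKM across those labelled cKO. As for Mdm2, all WT values lay between those of cKO replicate 1 and of the other cKO-labelled libraries. The log2 fold change was -0.055 (SE 0.090, adjusted p = 0.857 in limma), with an interval of 83.4% to 111% of WT, and it was -0.16 without cKO replicate 1. Leaving out cKO replicate 2 gave -0.0025, and leaving out cKO replicate 3 gave -0.0045.

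Sesn1 (identifier 140742, chromosome 10, 41810574 to 41908436) encodes sestrin 1, which restrains mTORC1 and takes part in antioxidant defence. It was at 30.9, 30.8 and 30.1 FPKM across the WT libraries, against 29.7, 36.5 and 29.9 FPKM across those labelled cKO. A single library, cKO replicate 2, stood above the rest. With it the log2 fold change was 0.056 (SE 0.082, adjusted p = 0.835 in limma) and without it -0.039.

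**Figure D2:**
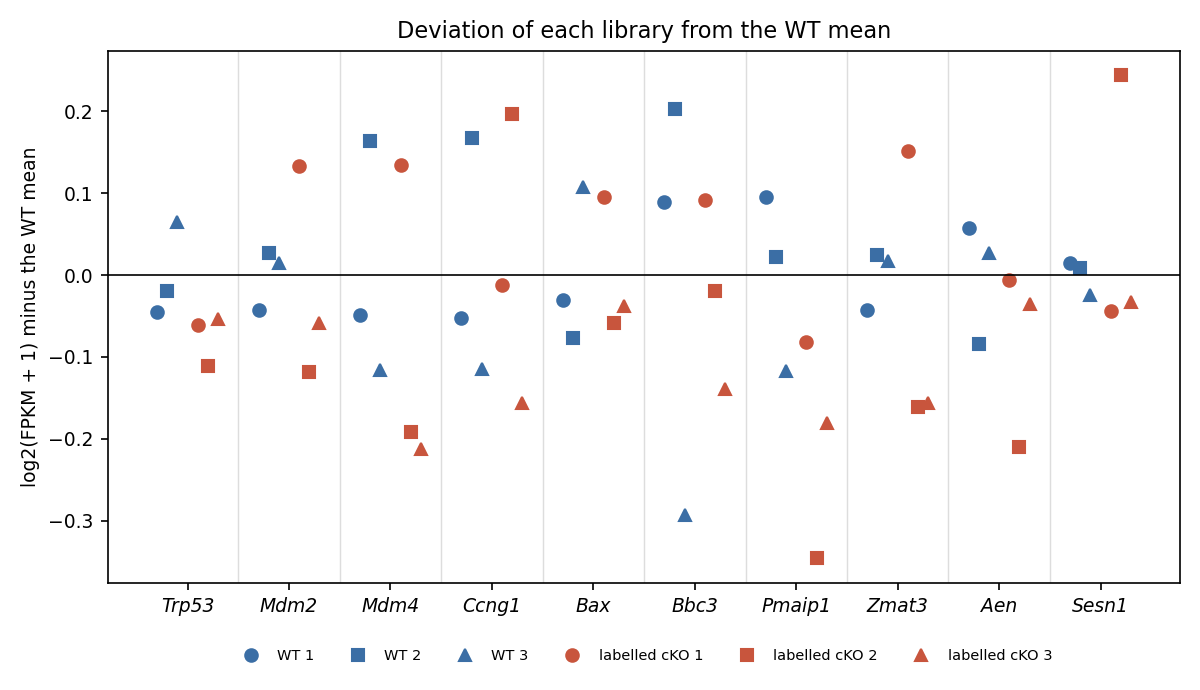
Log2(FPKM + 1) of each library minus the WT mean (vertical axis) for the 10 genes, WT in blue and cKO-labelled libraries in red, with symbols for the replicate number. cKO replicate 3 lies below the WT mean for all 10 genes, cKO replicate 2 for 8 and cKO replicate 1 for 5. Medians of all tested genes were -0.011, -0.024 and -0.011 in cKO replicates 1 to 3.

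The cKO-labelled libraries differed from each other over the 10 genes. Relative to the WT mean on the log2(FPKM + 1) scale, their median was -0.036, 0.024 and -0.0046 in WT replicates 1 to 3 and 0.043, -0.11 and -0.099 in cKO replicates 1 to 3. The median of all tested genes was -0.011, -0.024 and -0.011 in cKO replicates 1 to 3. By the median of the 10 genes, cKO replicate 1 lay above every WT library, and the other cKO-labelled libraries below every one. cKO replicate 2 held the lowest value for 5 of the 10 genes and the highest for 2, Ccng1 and Sesn1. cKO replicate 1 held the highest value for Mdm2 and Zmat3.

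The levels of the 10 genes, as means of FPKM over the 6 libraries, formed steps. Bax (143.8) and Ccng1 (133) led, with overlapping ranges, and both lay far above Trp53 (45.9). Aen (35.03) and Sesn1 (31.3) overlapped each other but neither Trp53 nor Mdm2. Mdm2 (23.7) overlapped Mdm4 (18.9), and Mdm4 overlapped Zmat3 (14.8). Bbc3 (5.32) and Pmaip1 (3.79) overlapped each other and stood below the rest. Within a gene the highest library was 1.13 times the lowest for Trp53 and 1.51 times the lowest for Bbc3, with the other 8 genes in between.

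**Figure D3:**
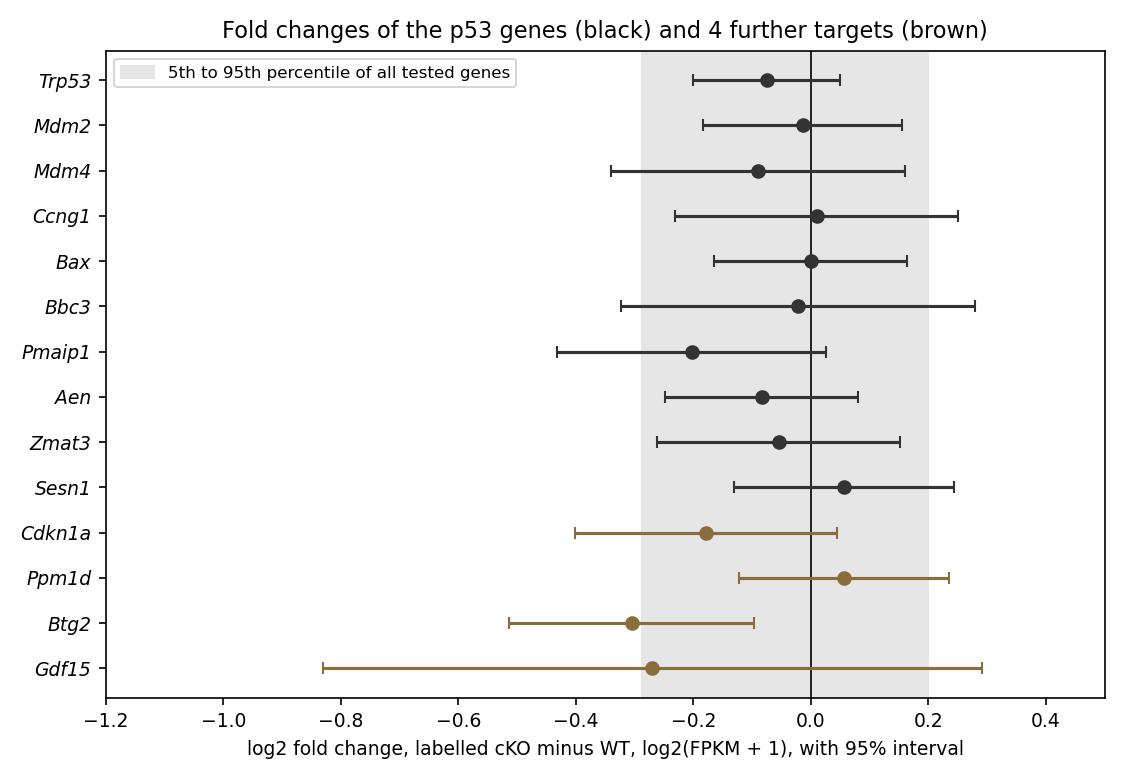
Log2 fold changes between WT and the cKO-labelled libraries on the log2(FPKM + 1) scale (horizontal axis) with 95% intervals from limma, for the 10 genes (black) and 4 further p53 targets (brown). The grey band is the 5th to 95th percentile of all tested genes, -0.29 to 0.20. All 10 black points lie within it and all 10 black intervals include 0.

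The difference in Y-linked transcripts cannot be told apart from the group in WT replicates 1 and 2, so the 10 genes were also compared without these libraries. Against WT replicate 3 alone, log2 fold changes ran from -0.14 for Trp53 to 0.27 for Bbc3, with an adjusted p of 0.999 for each of the 10 genes in limma, where the lone WT library was taken to vary like the others. Bbc3 was lowest in that library. With Y-linked transcripts as a covariate the values ran from -0.26 for Bax to 0.62 for Bbc3, and the lowest adjusted p among the 10 genes was 0.921. As a percentage of the cKO mean, this covariate was 0.144% to 0.206% in WT replicates 1 and 2. It was 53.4% in WT replicate 3 and 90.3% to 106% in the cKO-labelled libraries. It thus nearly follows the group, and its fit rests mostly on WT replicate 3, so the 2 cannot be told apart. For Trp53 the value was -0.24 with the covariate.

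Further targets of p53 came from lists of arrest and feedback, apoptosis, and metabolism and repair genes, 47 entries of which 43 were tested. Limma called 0 of 43 over all genes, beside 0.0259% of all tested genes, with 27 fold changes below 0 and 16 above. At an unadjusted p under 0.05 there were 7 lower and 1 higher, beside 7.82% and 4.44% of all tested genes. The groups did not overlap for 7 lower and 2 higher genes, against 10.2% and 7.07% of all tested genes.

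Cdkn1a, which encodes the CDK inhibitor p21 and is the best known arrest target, was at 156, 157 and 146 FPKM across the WT libraries, against 154, 137 and 117 FPKM across those labelled cKO. cKO replicate 1 lay within the WT range and the other cKO-labelled libraries below it. The means were 153 ± 6.46 and 136 ± 18.7 FPKM (SD, n = 3 each), with a fitted log2 change of -0.18 (SE 0.097, adjusted p = 0.501 in limma). For Cdkn1a it was -0.073 without cKO replicate 3 and -0.27 without cKO replicate 1. With Y-linked transcripts as a covariate, which nearly follows the group, it was -0.00047. Ppm1d, the WIP1 phosphatase that switches p53 signalling off, had a WT mean of 7.88 FPKM and a cKO mean of 8.21 FPKM, the order kept for the pairs of means that follow (adjusted p = 0.828). Gdf15, a secreted stress cytokine, was at 2.85 to 3.81 FPKM across the WT libraries, against 3.89, 1.29 and 2.84 FPKM across those labelled cKO. Its log2 fold change of -0.27 (adjusted p = 0.714 in limma) was 0.037 without cKO replicate 2.

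The 16 tested arrest and feedback genes had a median log2 fold change of -0.049, with 10 below 0. This median was 0.011 without cKO replicate 2 and -0.14 without cKO replicate 1. Those of lowest p were Psrc1, a spindle protein, at 29.4 and 21.7 FPKM on average (adjusted p = 0.207), Btg2, an antiproliferative gene, and Ckap2, a microtubule protein, at 43.6 and 34.6 FPKM (adjusted p = 0.294). Btg2, also known as an immediate early gene, was at 11.9, 13.4 and 10.4 FPKM across the WT libraries, against 8.93, 9.74 and 9.49 FPKM across those labelled cKO (fold change on the log2 scale -0.31, SE 0.091, adjusted p = 0.257 in limma). The immediate early gene Fos was at 45.5, 26.4 and 23.0 FPKM across the WT libraries, against 13.1, 15.5 and 10.9 FPKM across those labelled cKO (adjusted p = 0.176). The 6 listed immediate early genes, which do not include Btg2, summed to 128 to 193 FPKM in WT and to 84.2 to 91.9 FPKM in the cKO-labelled libraries, and their part in the values of Btg2 was not tested. With Y-linked transcripts as a covariate, which nearly follows the group, the fold change of Btg2 was 0.091.

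For the 13 tested apoptosis targets the median was -0.10, with 10 below 0, and it was -0.045 without WT replicate 2. Pidd1, a scaffold of caspase 2 activation, averaged 5.51 and 4.37 FPKM (adjusted p = 0.336 in limma), and its groups did not overlap. Rps27l, a ribosomal protein paralog induced by p53, averaged 126 and 113 FPKM (adjusted p = 0.402). Siva1, a proapoptotic adaptor, averaged 15.0 and 11.8 FPKM (adjusted p = 0.408), with cKO replicate 1 the lowest at 8.70 FPKM.

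The 14 tested metabolism and repair targets were split, 7 below 0 and 7 above, with a median of -0.019 whose sign turned with the processing, from -0.046 with no filter on low values to 0.052 against WT replicate 3 alone. Abhd4, a lipid hydrolase, was higher in each library labelled cKO than in any WT library, at 254 ± 19.1 and 296 ± 22.3 FPKM (SD, n = 3 each, adjusted p = 0.342 in limma). Fdxr, the mitochondrial ferredoxin reductase, averaged 16.2 and 13.4 FPKM (adjusted p = 0.376). Polh, a translesion DNA polymerase, averaged 8.87 and 7.52 FPKM (adjusted p = 0.476).

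**Figure D4:**
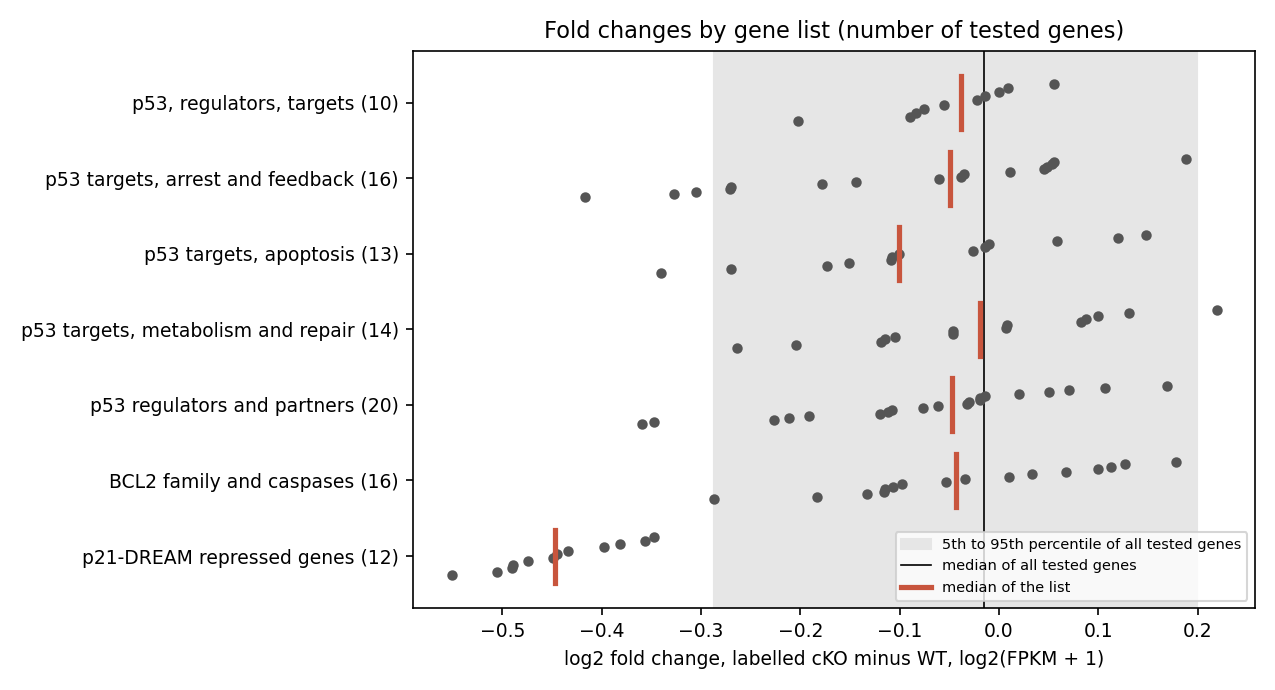
Log2 fold changes between WT and the cKO-labelled libraries on the log2(FPKM + 1) scale (horizontal axis) of the tested genes of 7 lists, with the number of genes in brackets and list medians as red bars. The grey band is the 5th to 95th percentile of all tested genes and the black line their median, -0.015. The 12 listed mitotic genes, of a kind that p21 and DREAM can repress, lie at -0.55 to -0.35, left of the band. A part of p21 or DREAM in this was not tested. The other medians lie between -0.10 and -0.019.

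Upstream regulators and partners of p53, and the BCL2 family with its caspases, gave 0 calls among 36 tested genes in limma. The share called among all tested genes was 0.0259%. Of the 16 tested BCL2 family and caspase genes, 0 had an unadjusted p under 0.05, beside 12.3% of all tested genes. Among the 20 tested regulators and partners 4 did, all lower, where 7.82% of all tested genes lay lower at that p. Those 4 included both checkpoint kinases that phosphorylate p53 or its regulators. Chek1 was at 4.44, 4.26 and 4.50 FPKM across the WT libraries, against 3.21, 2.81 and 3.76 FPKM across those labelled cKO, and its groups did not overlap (log2 fold change -0.35, SE 0.098, adjusted p = 0.242 in limma). Chek2 was at 8.32, 10.7 and 8.17 FPKM across the WT libraries, against 7.07, 6.63 and 6.72 FPKM across those labelled cKO (fold change on the log2 scale -0.36, SE 0.10, adjusted p = 0.242). Ppp1r13l, the p53 inhibitor iASPP, averaged 3.49 and 2.83 FPKM (adjusted p = 0.335). The last was Rpl11, a ribosomal protein that can bind MDM2, at 462 to 525 FPKM in WT and 428 to 446 FPKM in the cKO-labelled libraries (adjusted p = 0.350), named after its values were seen. Trp63 and Trp73, the paralogs of Trp53, were below the filter at 0.42 FPKM or less in every library.

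In the BCL2 family, Bcl2l11, encoding the BH3-only protein BIM, averaged 4.93 and 3.78 FPKM (adjusted p = 0.513 in limma), and Bak1, which acts beside BAX, 39.2 and 36.1 FPKM (adjusted p = 0.522). Bax was compared with its antagonists within each library, again as ratios chosen with the data known. Bax stood at 40.2, 44.2 and 40.4 times Bcl2 across the WT libraries, against 30.1, 43.1 and 34.9 times Bcl2 across those labelled cKO (exact permutation p = 0.3, two-sided). Relative to Bcl2l1, which encodes BCL-XL, it stood at 6.34 ± 0.25 in WT and 6.34 ± 0.94 in the cKO-labelled libraries (SD, n = 3 each, exact permutation p = 1.0).

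Active p53 lowers many mitotic genes indirectly, through p21 and the repressor complex DREAM. All 12 such genes listed had fold changes below 0, with a median of -0.45 and a range of -0.55 to -0.35. Limma called 0 of 12 over all genes, beside 0.0259% of all tested genes. All 12 were lower at an unadjusted p under 0.05, beside 7.82% of all tested genes. The list was drawn up knowing that mitotic genes were lower in these data, so its direction is not independent evidence. Birc5, which encodes survivin, averaged 30.9 ± 2.97 and 20.9 ± 3.90 FPKM (SD, n = 3 each, adjusted p = 0.209 in limma). Top2a, the topoisomerase of dividing cells, averaged 62.1 and 44.1 FPKM (adjusted p = 0.235), Kif23, a kinesin of cytokinesis, 9.45 and 6.44 FPKM (adjusted p = 0.238), and Mki67, the proliferation marker Ki-67, 29.2 and 21.2 FPKM (adjusted p = 0.242). The groups did not overlap for 9 of the 12 genes, all lower, against 10.2% of all tested genes. Relative to the WT mean, the list's median was -0.49, -0.66 and -0.18 in cKO replicates 1 to 3. The list median was -0.29 with library weights.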

How the data were processed

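The deposited table gives FPKM for each gene in each of 6 libraries, as the authors made them, per the file headers. The submitters' processing notes name Bowtie2 and GRCm38 (mm10). The sources used here give no counting tool, annotation, transcript lengths or strand setting. Each column matched 1 sample by group and number. Steps worth 1 fragment, sought in 47 to 53 low values per library, were whole (within 0.1 fragment) for at most 60.4%, so reads were not recovered, the depth behind each value is unknown and no count test was run. GENCODE M21 lists the pseudogenes Trp53-ps and Mdm4-ps, whose reads may be shared.

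A two-sided limma test (version 3.58.1, R 4.3.3, prior variance following intensity) compared log2(FPKM + 1) of the 11596 genes whose mean reached 1 FPKM. P-values were adjusted over all of these genes by Benjamini-Hochberg, with a threshold of 0.05. This scale understates changes of low genes. The fit was tested on simulated data. The 10 genes and all lists were chosen with earlier results of these data known. Named are the 10 genes, Cdkn1a, Ppm1d, Btg2, Gdf15, Slc22a17, Ddx3y, Eif2s3y, Mki67 and Fos, the 3 genes of lowest p of each p53-related list, and markers. One gene that this rule selects is not reported here. Gene positions come from RefSeq (GRCm38.p6), figures from matplotlib 3.10.9. The 16 alternatives changed the pseudocount, filter, scaling, variance model, weights, block, covariate or libraries.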

Additional observations from a re-analysis of the deposited data

How the results depend on the processing

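The 10 p53 genes gave 0 calls under each of the 16 alternatives, as did the 43 further targets and the 36 regulators and BCL2 family genes. The lowest adjusted p of any of the 10 genes was 0.125, for Pmaip1 with library weights. Over all genes the number of calls was 3, and it was 0 with no filter, with quantile normalization, without the intensity trend, with Y-linked transcripts as a covariate and for the cKO-labelled libraries against only WT replicate 3. It was 129 with library weights and 0 to 10 when single libraries were left out, with 10 without WT replicate 3 and 0 without WT replicate 1 or cKO replicate 1. With the replicate number as a block it was 22, and none of the p53 genes was among them. Same-numbered libraries did not deviate together throughout (correlations of -0.043, 0.30 and 0.26 for numbers 1 to 3), and WT replicate 1 correlated best with cKO replicate 2, at 0.12.

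Signs of some log2 fold changes turned. With median scaling they were 0.010 for Mdm2, 0.024 for Bax and 0.0021 for Bbc3, with quantile normalization 0.0042 for Mdm2 and 0.016 for Bbc3, and with library weights 0.0065 for Bax. Against WT replicate 3 alone they were 0.026 for Mdm4, 0.27 for Bbc3 and -0.051 for Ppm1d. With Y-linked transcripts as a covariate they were 0.11 for Mdm4, 0.62 for Bbc3, -0.22 for Ppm1d and 0.091 for Btg2. With this covariate they were also -0.020 for Abhd4, 0.074 for Polh and 0.30 for Bcl2l11. The covariate is the sum of Ddx3y (-1.10) and Eif2s3y (-2.66), so the values of these genes with it are not a result. Leaving out single libraries gave -0.088 to 0.038 for Mdm2, -0.084 to 0.093 for Ccng1, -0.048 to 0.053 for Bax, -0.17 to 0.079 for Bbc3, -0.039 to 0.11 for Sesn1 and -0.51 to 0.037 for Gdf15. The cause of the turns in the other genes was not tested. With the filter at a mean of 5 FPKM Pmaip1 was not tested. With 3 libraries a group, the 95% intervals of the 10 genes reached 74.1% to 91.3% of WT at the lower end and 102% to 121% at the upper end. These percentages refer to FPKM + 1, so they are narrower than those of FPKM for low genes such as Bbc3 and Pmaip1.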
